A study of Rattus norvegicus with 72 samples.

Results

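Immediate early genes were followed through a rat model of compensatory growth of the remaining kidney. The set held 10 genes, chosen with earlier results of these data known and matched by symbol: Fos, Fosb, Jun, Junb, Egr1, Ier2, Atf3, Nr4a1, Dusp1 and Myc. Of these, 9 had a row among the 32545 genes of each count table, and all 9 passed the filter on low counts in every tissue. In those tables they carry Ensembl gene identifiers, from ENSRNOG00000008015 (Fos) and ENSRNOG00000026293 (Jun) to ENSRNOG00000004500 (Myc). Ier2 had no row under that symbol and was not analysed here.

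Immediate early genes are transcribed within minutes of a stimulus from factors already present in the cell, without new protein synthesis, and their transcripts are short-lived. Growth factors acting through MAP kinases, serum response factor and cyclic AMP response element binding protein are the classical inducers, and many encode transcription factors that act on later genes. In kidney they are known to respond to ischaemia, mitogens and mechanical handling of tissue, so that cutting out nephron segments can itself induce them.

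The samples came from adult male Sprague-Dawley rats that had the right kidney removed (nephrectomy) or sham surgery, in which the pedicle of the right kidney was only dissected before closure, under general anaesthesia in both cases. The remaining or matching left kidney was taken at 24, 48 or 72 h, and RNA was sequenced from microdissected glomeruli, from microdissected S1 proximal tubules (the first stretch of the proximal tubule) and from whole kidney. This gave 18 groups of 4 libraries, 72 in all, of which 70 entered the tests. Glomerulus and S1 RNA was amplified with a NuGEN Ovation kit and read single-end, while whole kidney RNA went through TruSeq Stranded preparation and was read paired-end, so levels in whole kidney were not tested against those in the dissected segments. None of these libraries is labelled as from an unoperated rat. The labels do not say that the libraries of a group came from separate rats, and p-values therefore measure only the spread between libraries.

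Promoter sequence in the RefSeq table (build GRCr8) was found for 6 of the 10 genes: Fosb, Junb, Egr1, Ier2, Nr4a1 and Dusp1. The 250 bases before the start are shown for 4 of these, Fosb, Junb, Nr4a1 and Dusp1. Whether promoter motifs have a part in the levels of the genes was not tested. Capitals mark a match, on either strand, to 1 of 4 motifs: the CArG box bound by serum response factor, the cyclic AMP response element TGACGTCA, the AP-1 site TGANTCA, or the TATA box TATAAA. The 4 motifs were found in 1.5%, 1.59%, 6.34% and 12.9% of 33469 promoters of the same length, in that order.
Fosb, chr1:88089185-88089434, minus strand: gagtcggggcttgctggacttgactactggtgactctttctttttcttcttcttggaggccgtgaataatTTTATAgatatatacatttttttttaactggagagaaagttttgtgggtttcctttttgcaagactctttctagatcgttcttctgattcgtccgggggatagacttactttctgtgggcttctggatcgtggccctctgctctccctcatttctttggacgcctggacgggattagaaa
Junb, chr19:40080876-40081125, plus strand: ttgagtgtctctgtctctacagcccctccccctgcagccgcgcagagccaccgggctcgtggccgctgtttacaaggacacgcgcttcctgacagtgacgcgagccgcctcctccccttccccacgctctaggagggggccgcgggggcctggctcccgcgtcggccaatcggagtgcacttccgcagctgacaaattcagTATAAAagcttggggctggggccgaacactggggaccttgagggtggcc
Nr4a1, chr7:134259888-134260137, plus strand: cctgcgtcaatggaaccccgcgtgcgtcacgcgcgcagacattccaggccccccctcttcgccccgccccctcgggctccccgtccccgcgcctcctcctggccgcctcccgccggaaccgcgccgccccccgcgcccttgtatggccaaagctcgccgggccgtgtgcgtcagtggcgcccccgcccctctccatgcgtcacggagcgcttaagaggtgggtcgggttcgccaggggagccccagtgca
Dusp1, chr10:17184603-17184852, plus strand: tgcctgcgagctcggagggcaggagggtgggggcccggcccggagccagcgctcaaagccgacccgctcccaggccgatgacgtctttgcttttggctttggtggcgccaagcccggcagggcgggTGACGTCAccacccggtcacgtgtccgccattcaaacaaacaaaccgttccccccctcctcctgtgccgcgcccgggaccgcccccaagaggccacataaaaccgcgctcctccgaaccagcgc
The Dusp1 promoter held a cyclic AMP response element at positions -124 to -117 from the start. Junb had a TATA box at -49 to -44, and Fosb had the same letters on the opposite strand at -180 to -175. Nr4a1 had none of the 4 motifs in this window. Egr1, not printed, had 2 CArG boxes, and Ier2 had 1 cyclic AMP response element. Fos, Jun, Atf3 and Myc were not matched.

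Counts over genes, in mega-counts (M), ranged from 2.64 to 37.4 M per glomerulus library, 7.88 to 87.4 M per S1 library and 10.1 to 55.5 M per whole kidney library. Podocyte markers, as a mean of log2 CPM (counts-per-million), lay between 9.14 and 10.4 in 23 glomerulus libraries and between 0.916 and 2.65 in 23 S1 libraries, whereas proximal tubule markers lay between 2.61 and 6.01 in the former and between 8.01 and 10.15 in the latter. The pair labelled sham 24 h, number 2, went against this and was left out: its glomerulus library had podocyte and proximal values of 2.60 and 10.2, and its S1 library had 9.36 and 6.53. The whole kidney library of sham 24 h, number 2, had the lowest share of uniquely placed reads counted to genes among whole kidney libraries (60.2%) and the highest proximal tubule marker level (9.22). The 4 whole kidney libraries of 24 h numbered 3 and 4 had podocyte levels of 1.78 to 3.43, the lowest in that tissue. Results that rest on these libraries are given with and without them.

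In glomeruli of sham-operated rats, 8 of the 9 genes were present at far higher levels than in S1 tubules. Per length of transcript, the median over 11 sham glomerulus libraries was 137 RPKM (reads per kilobase of gene, scaled to depth) for Egr1, a zinc finger transcription factor, 119 for Dusp1, a phosphatase that switches off MAP kinases, and 96.4 for Nr4a1, an orphan nuclear receptor. The median was 82.6 RPKM for Jun, 51.4 for Fos and 33.1 for Fosb, the partners of the AP-1 dimer, 12.03 for Junb, 7.12 for Atf3, a stress-induced factor of the same leucine zipper class, and 4.06 for Myc. The ranges of neighbours in this order overlapped: Egr1 was above Dusp1 in 6 of 11 libraries.

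In S1 tubules the order was different. Jun had the highest median, 8.31 RPKM, above Dusp1 (2.27 RPKM) in 11 of 11 libraries. Myc followed with 1.76 RPKM, above Nr4a1 (1.22 RPKM) in 11 of 11 libraries. The others had medians of 0.883 (Egr1), 0.692 (Junb), 0.407 (Fos), 0.330 (Fosb) and 0.138 (Atf3). In whole kidney, in FPKM (the same unit over fragments), the medians over 12 sham libraries were 13.4 for Jun, 9.78 for Junb, 9.33 for Dusp1, 1.69 for Myc, 1.38 for Egr1, 1.21 for Nr4a1, 0.561 for Atf3, 0.533 for Fos and 0.0418 for Fosb. Neighbouring ranges overlapped there as well, although Dusp1 was above Myc and Fos above Fosb in 12 of 12 libraries.

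**Figure D1:**
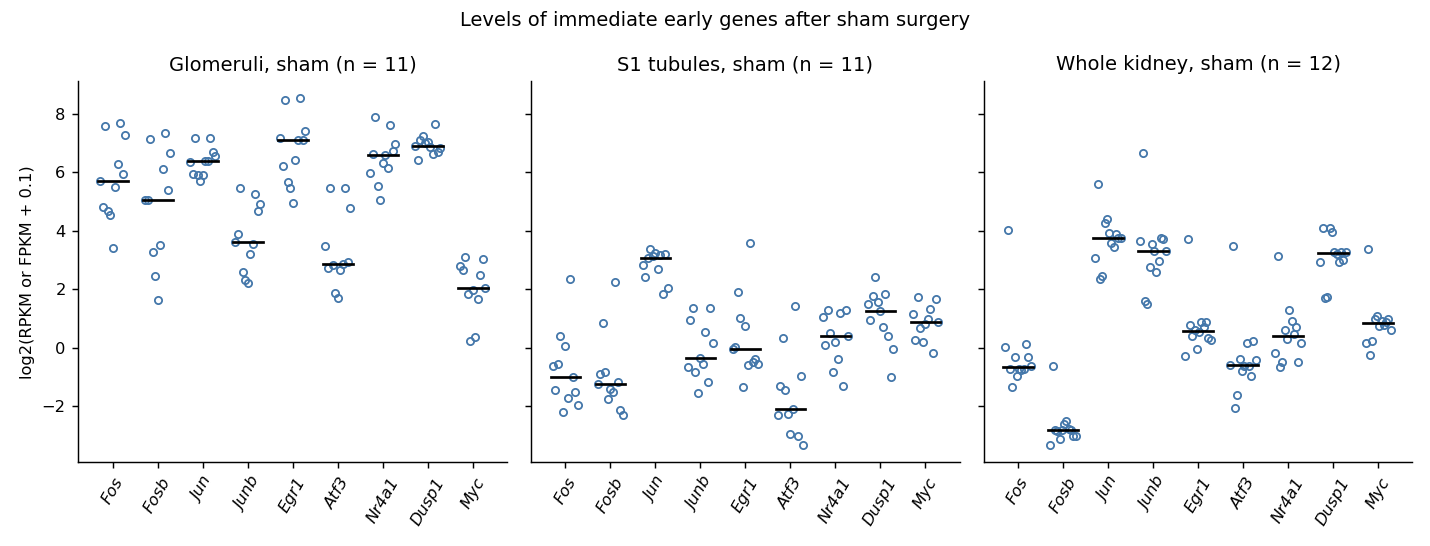
Level of the 9 genes after sham surgery, as log2(RPKM + 0.1) in glomeruli (n = 11) and S1 (n = 11) and log2(FPKM + 0.1) in whole kidney (n = 12). Each point is a library and each bar the median; Egr1 and Dusp1 stand highest in glomeruli, Jun in S1 and whole kidney.

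The difference between glomeruli and S1 after sham surgery was tested on counts with edgeR's quasi-likelihood test over 24488 genes. Fos was higher in glomeruli by 4.74 ± 0.71 (log2 ± SE, adjusted p = 1.64e-07), Nr4a1 by 4.58 ± 0.38 (adjusted p = 1.89e-14), Egr1 by 4.34 ± 0.54 (adjusted p = 1.74e-09) and Fosb by 4.01 ± 0.67 (adjusted p = 1.57e-06). Dusp1 was higher by 3.97 ± 0.35, Atf3 by 3.43 ± 0.66, Junb by 2.33 ± 0.43 and Jun by 1.87 ± 0.25. Thus 8 of 9 genes were called higher, where 21.1% of all genes tested were called higher and 39.7% were called in either direction. The median of the 9 genes was 3.97, against 0.69 over all genes.

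Myc was the exception, at -0.49 ± 0.27 (adjusted p = 0.142). Its direction depended on the scaling: with library totals alone it was 1.25 by edgeR (adjusted p = 0.000256, with a range from 8.94e-05 to 0.529 over 35 settings). Of all called genes, 53.2% were higher in glomeruli with the trimmed mean scaling used here, 65.0% with relative log expression factors and 93.4% with library totals. The other 8 genes stayed called higher under all 3 scalings. Of all genes tested, 39.7%, 44.8% and 87.0% were called in either direction with these scalings, in that order. The S1 counts held 41.3% to 72.3% mitochondrial transcripts and the glomerulus counts 9.87% to 22.9%. In such bulk samples, fewer cells of a type and less RNA per cell cannot be told apart.

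Further early response genes, a list of 26 that all passed the filter in this comparison, were called higher in glomeruli in 23 cases and lower in none, with a median of 2.65. Socs3, an inhibitor of cytokine signalling, differed by 5.56, Gadd45b by 5.54 and Klf4 by 4.54. Of 9 inflammatory early genes 8 were higher (median 2.50), among them Tnfaip3 (3.17) and Nfkbia (2.52), both feedback inhibitors of NF-kappaB. Of 12 MAP kinase phosphatases and feedback inhibitors 10 were higher and 1 lower (median 1.66): Dusp8 differed by 3.86, Dusp4 by 3.09 and Spry4 by 2.89, while Dusp2 was lower at -1.88. The kinases and transcription factors upstream were split, with 7 higher and 6 lower of 19 (median 0.33), Elk3 at 3.62 and Srf at 1.04 on one side and Rps6ka1 at -2.33 and Mapk9 at -1.52 on the other.

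Of 12 genes tested from a list for the Myc and Max network, 3 were called higher and 6 lower (median -0.36, with 6 of 12 above 0). Mycn was higher by 4.60, and Mxi1, which competes for the partner Max, was lower at -2.07. Of 5 heat shock genes 2 were higher, Hspa1b (6.00) and Hspb1 (4.79), and 2 lower, Hsph1 (-1.71) and Bag3 (-1.49). The libraries also differed in cell content: 8 of 8 podocyte, 7 of 7 endothelial, 8 of 8 mesangial and smooth muscle and 6 of 8 immune markers were higher in glomeruli, and 10 of 10 proximal tubule markers were lower. Whether dissection moved the early genes was not tested, since every library of both segments was dissected.

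Within the groups, the early genes varied more from one glomerulus library to the next than most genes at 5 CPM or more. The pooled within-group SD of log2 CPM was 1.72 for Fosb, 1.39 for Fos, 1.39 for Atf3, 1.11 for Junb, 1.10 for Egr1 and 1.06 for Nr4a1. Among 11380 genes with a mean of at least 5 CPM the median SD was 0.511, and these 6 genes stood between the percentiles 93.4 (Nr4a1) and 99.3 (Fosb). Jun (0.505), Dusp1 (0.531) and Myc (0.575) had ordinary spreads, at percentiles 48.8, 54.1 and 62.2. Over the 23 libraries the highest level of Fosb was 149 times the lowest, that of Fos 32.1 times and that of Dusp1 3.52 times. High spreads were not particular to glomeruli. In S1, Fos, Fosb, Junb, Egr1 and Atf3 stood between percentiles 96.8 and 99.8, all but Egr1 with a mean under 5 CPM. In whole kidney the same genes and Nr4a1 stood between 97.65 and 98.9, Myc at 95.3, Jun at 88.0 and Dusp1 at 68.2.

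The deviations of these genes from their group means ran together in glomeruli. Over 23 libraries all 36 pairs had a Pearson correlation above 0, with a median of 0.766, and 30 passed an adjusted p of 0.05 in permutation tests over 108 pairs in 3 tissues. For Fos and Egr1, r was 0.964 and Spearman's rho 0.983 (p = 1e-05, the smallest that 100000 resamples can give; adjusted p = 5.7e-05), and r was 0.949 without the 2 libraries farthest from the median. Fos also ran with Atf3 (r = 0.945, rho = 0.924) and Fosb (r = 0.940, rho = 0.954), and r was 0.917 and 0.910 without the 2 farthest libraries. Myc stood apart: its median r with the other genes was 0.367, 2 of its 8 pairs passed, and with Fos it had r = 0.27 (adjusted p = 0.25). Without Myc the median over 28 pairs was 0.815.

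**Figure D2:**
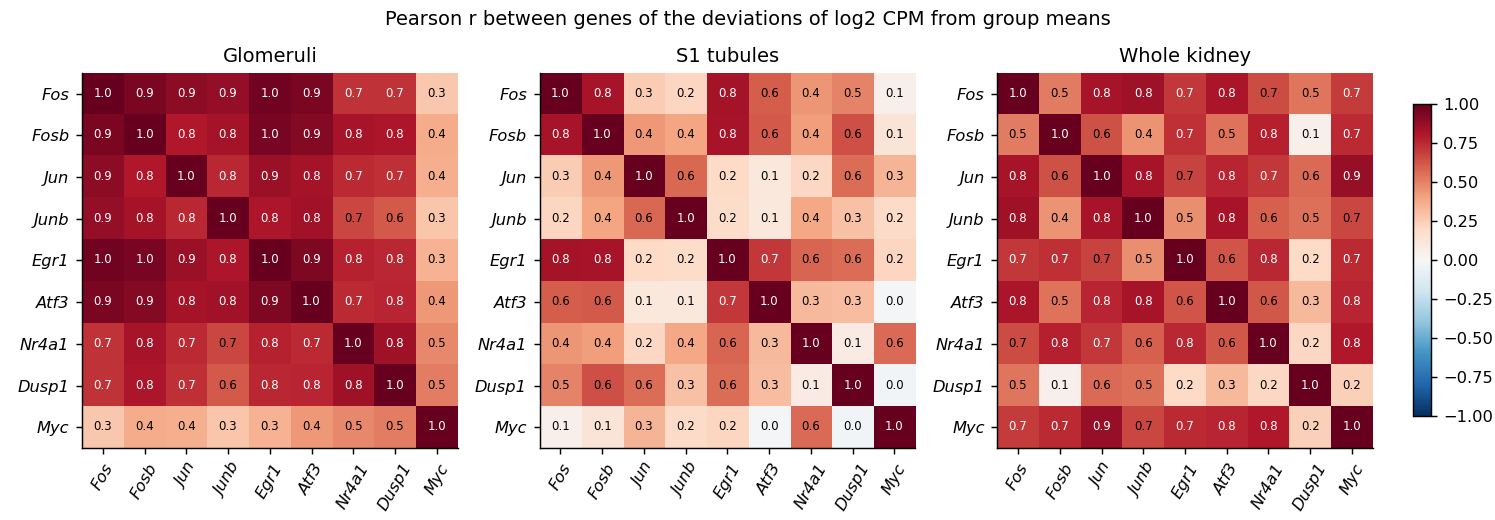
Pearson correlation between the genes' deviations from their group means in log2 CPM, over 23 glomerulus, 23 S1 and 24 whole kidney libraries. In glomeruli every pair is above 0, with a median of 0.766, and the column of Myc is the palest.

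The covariation was looser in S1, where the median r was 0.363 and 13 of 36 pairs passed, led by Fos with Egr1 (r = 0.831) and Fos with Fosb (r = 0.827). In whole kidney the median r was 0.669 and 30 pairs passed, but without the 2 libraries farthest from the median it was 0.337, so that this rests on a few libraries. Between the 2 dissected segments of the same group and number, the 9 genes had r between -0.182 and 0.289 (n = 23, permutation tests, lowest adjusted p = 0.63 over 9 tests).

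The genes outside the set with the deviations most like Fos in glomeruli, of 10749 with at least 5 CPM, were Socs3 (r = 0.869), Ier3 (0.851), Zfp36 (0.838), Btg2 (0.835) and Ppp1r15a (0.832). In whole kidney they were Zfp36 (0.862), Bcl6b (0.855), Mcam (0.849), Grasp (0.836) and Sema3f (0.834), of 9346. In S1 they were Aqp2 (0.65), the water channel of the collecting duct, Flna (0.625), Rhcg (0.62), Scd2 (0.619) and Cd24 (0.598), of 7387. All of these are over the 23 or 24 libraries of a tissue, which also differed from each other in depth and cell content.

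The deviations of Fos were set against 12 measures of each library in each tissue (36 tests). In glomeruli r was -0.556 with markers of the loop of Henle and distal tubule (rho -0.589, adjusted p = 0.054 for r by permutation), -0.505 with proximal tubule markers (adjusted p = 0.074) and 0.487 with podocyte markers (adjusted p = 0.074). In S1 r was 0.567 with collecting duct markers (adjusted p = 0.054). In whole kidney it was -0.689 with the share of uniquely placed reads counted to genes (permutation adjusted p = 0.043, n = 24), with rho at -0.368 (adjusted p = 0.28) and r at -0.462 without the 2 farthest libraries. The part of these measures in the covariation of the genes was not tested further.

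Removal of the other kidney did not move any of the 9 genes past the test in glomeruli. The values are given by time after sham surgery and after nephrectomy, in CPM, in the order of the replicate numbers. For Fos they were 70.1, 40.7 and 282 at 24 h after sham surgery (numbers 1, 3 and 4) and 21.1, 66.8, 468 and 530 after nephrectomy. At 48 h they were 41.3, 44.5, 16.5 and 83.5 after sham surgery and 21.0, 134, 33.5 and 63.8 after nephrectomy, and at 72 h 115, 277, 80.9 and 270 against 365, 427, 68.5 and 192. The groups overlapped at each time, and 1 group of nephrectomy libraries at 24 h spanned from 21.1 to 530. The log2 difference of Fos was 1.05 ± 0.84 at 24 h, 0.44 ± 0.77 at 48 h and 0.51 ± 0.76 at 72 h.

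Fosb, which pairs with the Jun proteins as Fos does, had 98.1, 104 and 453 CPM at 24 h after sham surgery and 20.1, 145, 457 and 1124 after nephrectomy. At 48 h it had 33.4, 22.7, 10.2 and 45.9 against 7.56, 148, 20.1 and 35.4, and at 72 h 222, 475, 120 and 384 against 732, 827, 34.0 and 457. As for Fos, 1 or 2 libraries of a group were far above the rest at 24 h and after nephrectomy at 48 h. At 72 h nephrectomy number 3 was instead the lowest for both genes, and the groups overlapped at each time. Jun was far more even, with 215, 170 and 414 against 220, 199, 462 and 695 at 24 h. Junb, a relative of Jun in the same dimer family, had 18.5, 23.8 and 73.1 against 7.95, 51.2, 169 and 145 at 24 h, with a log2 difference of 1.28 ± 0.67, an interval of -0.10 to 2.66 and an unadjusted p of 0.067. That was the largest difference of the 9 genes at 24 h. At 48 h Junb had 10.8, 10.6, 7.99 and 19.1 CPM against 5.94, 23.4, 10.9 and 27.7, and at 72 h 19.4, 57.6, 38.4 and 59.6 against 57.9, 48.1, 29.4 and 72.9.

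Egr1 was the most abundant of the genes in CPM at 24 h. It had 384, 209 and 1025 CPM after sham surgery and 174, 552, 1518 and 1851 after nephrectomy, a difference of 0.92 ± 0.69. At 48 h it had 160, 167, 95.3 and 313 against 131, 513, 144 and 201 (0.42 ± 0.63), and at 72 h 406, 983, 360 and 586 against 1102, 1211, 160 and 516 (0.36 ± 0.63). At 72 h, 2 nephrectomy libraries were above all sham libraries and 1 was below them all. The same nephrectomy library, number 4 of 24 h, was the highest of all glomerulus libraries for Fos, Fosb, Jun, Egr1, Nr4a1, Dusp1 and Myc.

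Atf3 and Nr4a1 had the only unadjusted p-values under 0.05 when the 3 times were averaged. Atf3 had 22.2, 13.9 and 95.2 CPM at 24 h after sham surgery against 8.80, 45.8, 102 and 230 after nephrectomy. It had 16.3, 10.03, 7.16 and 16.9 against 6.80, 49.6, 9.37 and 23.6 at 48 h, and 15.5, 88.0, 14.6 and 70.6 against 151, 238, 33.7 and 63.7 at 72 h. The groups overlapped at each time, with 2 nephrectomy libraries of 72 h above all sham libraries of that time. The mean difference over the 3 times was 1.11 ± 0.47 (95% interval 0.14 to 2.08, unadjusted p = 0.0259, adjusted p = 1.00).

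Nr4a1 had 85.5, 143 and 347 CPM at 24 h after sham surgery and 182, 217, 322 and 775 after nephrectomy. It had 75.04, 63.5, 124 and 179 against 55.8, 195, 109 and 235 at 48 h, and 104, 264, 140 and 220 against 495, 625, 47.1 and 470 at 72 h. At 72 h, 3 of the 4 nephrectomy libraries were above all 4 sham libraries and the fourth, number 3, was below them all. The mean difference was 0.85 ± 0.35 (95% interval 0.14 to 1.57, unadjusted p = 0.0217, adjusted p = 1.00), and the one at 72 h was 1.17 ± 0.59. Without that library, which had the fewest counts of the glomerulus libraries (2.64 M), the 72 h difference was 1.54. Without nephrectomy 24 h number 4, the mean differences were 0.84 for Atf3 and 0.67 for Nr4a1.

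Dusp1, whose product ends MAP kinase signals, had a mean difference of 0.21 ± 0.21, and its 3 time points went both ways: 0.41 ± 0.38 at 24 h, -0.35 ± 0.35 at 48 h and 0.57 ± 0.35 at 72 h. At 72 h it had 179, 331, 168 and 241 CPM after sham surgery against 450, 374, 138 and 399 after nephrectomy, 3 of 4 above all sham libraries, with number 3 again the lowest. Myc, a growth-related basic helix-loop-helix factor, was low throughout, from 3.05 to 30.0 CPM, with a mean difference of 0.37 ± 0.25. The mean differences of the others were 0.89 ± 0.53 for Fosb, 0.67 ± 0.36 for Junb, 0.66 ± 0.46 for Fos, 0.57 ± 0.38 for Egr1 and 0.29 ± 0.20 for Jun.

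By edgeR's quasi-likelihood test, 0 of 9 genes were called in glomeruli at 24, 48 or 72 h or over the mean of the times, where 0% of 22405 genes were called in each of these 4 comparisons. At an unadjusted p under 0.05, 0 of the 9 genes passed at each time and 2 over the mean, against 206, 305, 649 and 472 of all genes. DESeq2 and limma-voom called 0 of the 9 as well. All 9 mean differences were above 0, with a median of 0.66 against 0.00 over all genes, and they were above 0 in each of the 33 settings run. The 9 genes are not independent of each other, as the correlations above show. The effect did not pass a test of a difference between times for any of the 9 genes (0.00446% of all genes called, 0 of 9 at an unadjusted p under 0.05).

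**Figure D3:**
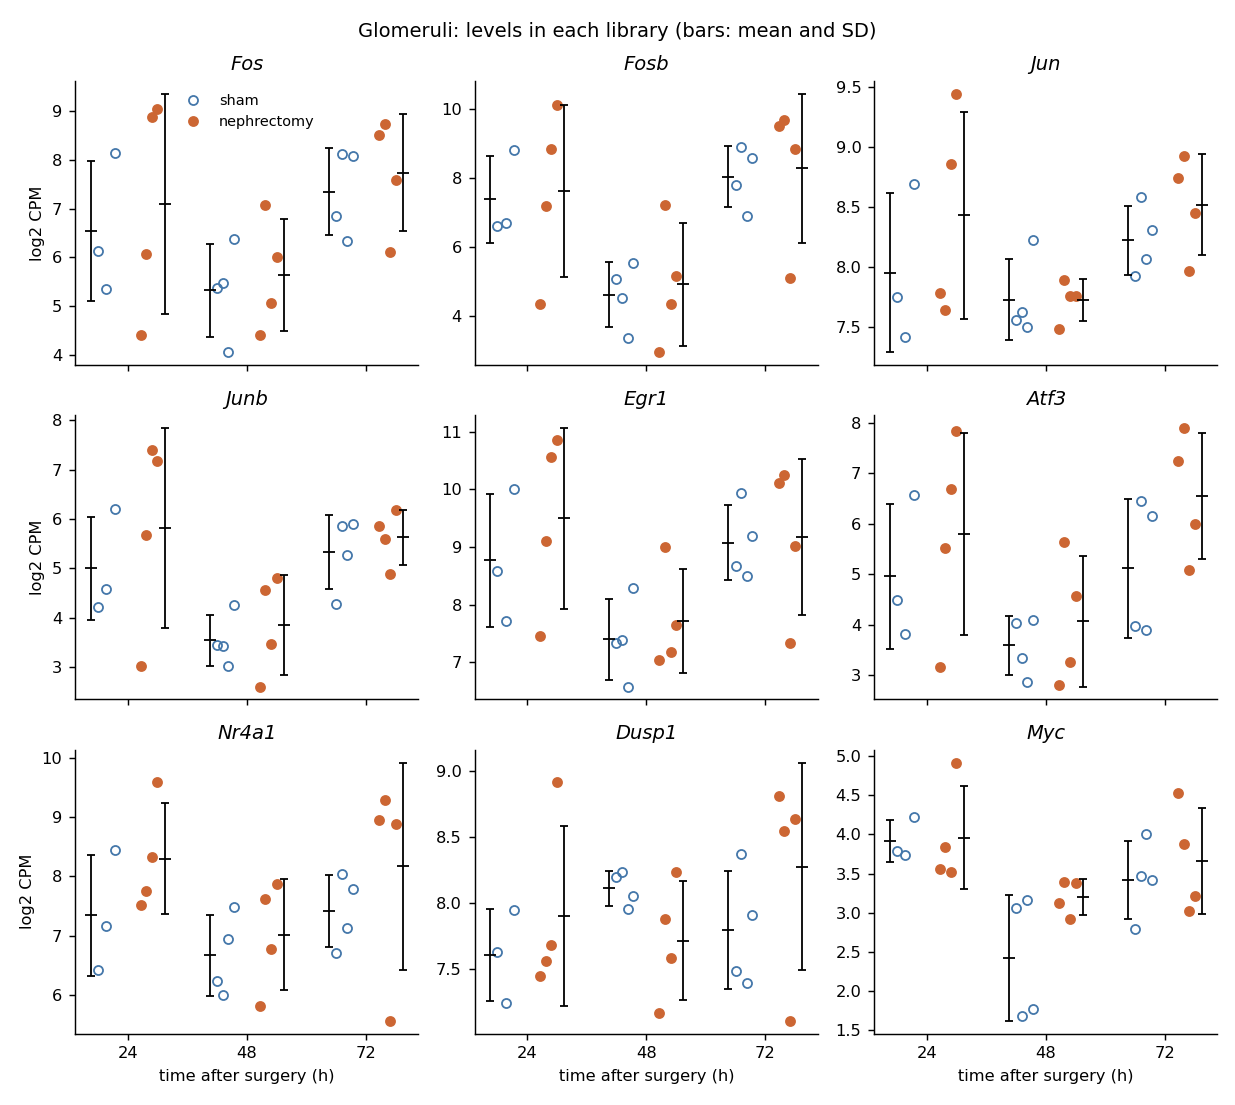
Level of each gene in glomeruli as log2 CPM against time in h, with a point for each library (open, sham; filled, nephrectomy) and bars for the mean ± SD. Sham and nephrectomy points overlap in every panel and time, and the 48 h points lie low for Fos, Fosb, Egr1, Junb and Atf3.

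Most further early response genes, which the set does not hold, also had positive differences. They are not independent of the 9 genes, since Socs3, Ier3, Zfp36 and Btg2 of this list were among those most like Fos above. Of 25 tested in glomeruli, 24 had a mean difference above 0 with a median of 0.41, and 0 were called, while 7 had an unadjusted p under 0.05 (2.11% of all genes). These were Nr4a3 (1.28 ± 0.40), Egr2 (0.99 ± 0.43), Ctgf (0.86 ± 0.26), Nr4a2 (0.82 ± 0.27), Maff (0.63 ± 0.23), Cebpd (0.62 ± 0.25) and Klf10 (0.37 ± 0.15). All 9 inflammatory early genes tested were above 0 (median 0.74), 0 were called and 3 had an unadjusted p under 0.05, among them Ccl2 (1.24 ± 0.36). The phosphatases and feedback inhibitors had a median of 0.09, the upstream kinases and factors 0.08, the Myc and Max network 0.03 and the heat shock genes -0.03, with 0 called in each list. Markers of the loop of Henle and distal tubule had a median of 0.82 (5 of 6 above 0, 0 called) and podocyte markers 0.08; their part in the early gene values was not tested.

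In S1 tubules the genes were low and no difference passed. Fos lay between 0.0419 CPM, which was 1 read, and 10.6 CPM, and its highest library was nephrectomy 48 h number 2. At 48 h it had 2.15, 0.187, 1.56 and 0.308 CPM after sham surgery and 0.0929, 10.6, 0.0419 and 1.58 after nephrectomy, so that 1 library stood above all others. Jun, the highest of the genes there, had 34.6, 27.0, 29.6 and 18.9 CPM at 48 h after sham surgery against 13.4, 14.5, 24.9 and 21.9, which overlap, with a difference of -0.56 ± 0.34. Atf3 at 48 h had 0.675, 0.249, 0.0709 and 0.308 CPM against 0.186, 6.83, 0.419 and 0.528, a difference of 2.61 ± 1.28 (unadjusted p = 0.0524) in which the same nephrectomy library is the highest. Over all 23 S1 libraries Egr1 lay between 0.935 and 35.1 CPM, Fosb between 0.293 and 15.1, Dusp1 between 0.536 and 11.2, Myc between 1.81 and 7.93 and Nr4a1 between 0.748 and 4.92. Junb and Atf3 were at 0 in 1 library each.

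The mean differences in S1 were 0.98 ± 0.70 for Fos, 0.57 ± 0.71 for Atf3, 0.17 ± 0.31 for Nr4a1, 0.13 ± 0.58 for Fosb, 0.12 ± 0.48 for Junb, 0.11 ± 0.48 for Egr1, -0.24 ± 0.20 for Jun, -0.28 ± 0.25 for Myc and -0.40 ± 0.35 for Dusp1. Their median was 0.12, against 0.03 over all genes. The edgeR test called 0 of 9 genes at 24, 48 and 72 h and over the mean, where 0% of 18372 genes were called each time, and 0 of the 9 had an unadjusted p under 0.05. DESeq2 called 0, and limma-voom called Jun at 48 h (-0.82, adjusted p = 0.033, with a range from 0.033 to 1.0 over 34 settings) and 1.01% of all genes. With the left-out pair kept under its labels, the mean difference was -0.54 for Fos and -1.18 for Fosb. The effect did not pass a test between times for any of them (0 of 9 called, 0 at an unadjusted p under 0.05, 0.0109% of all genes called).

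The nephrectomy effect was also tested between the 2 segments. Its difference was above 0 for 8 of the 9 genes, with a median of 0.54, and 0 were called (0% of 24488 genes called, 0 of 9 and 622 of all genes at an unadjusted p under 0.05). Nr4a1 differed by 0.73 ± 0.46 and Myc by 0.65 ± 0.37.

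**Figure D4:**
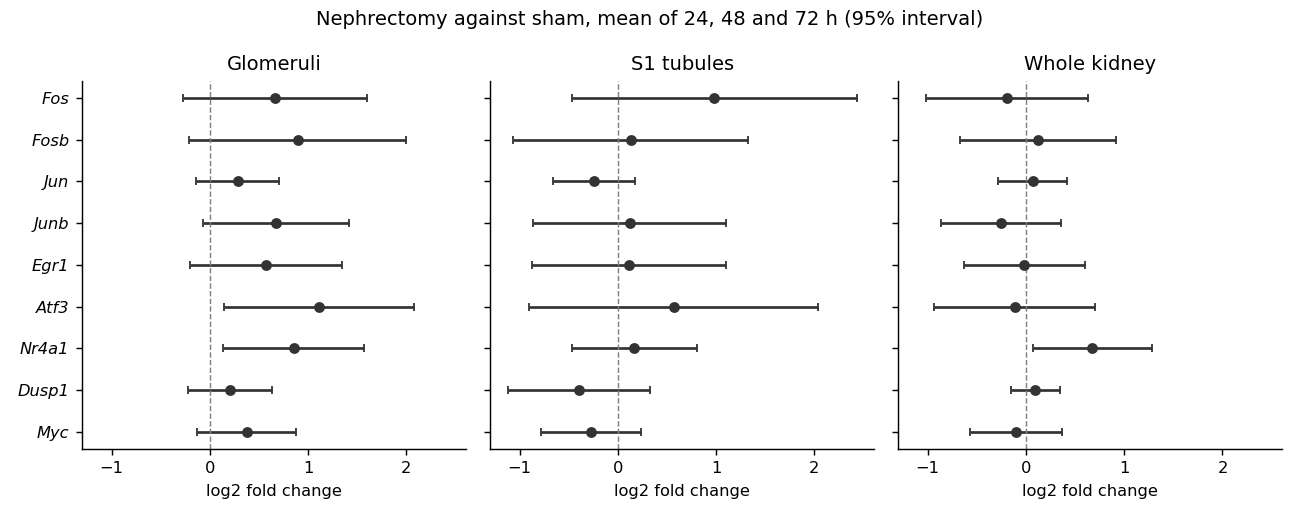
Log2 difference between nephrectomy and sham, averaged over 24, 48 and 72 h, for each gene in glomeruli, S1 and whole kidney, with its 95% interval. All 9 points are above 0 in glomeruli, where the intervals of Atf3 and Nr4a1 start at 0.14, and the interval of Nr4a1 starts at 0.07 in whole kidney.

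In whole kidney Nr4a1 had the lowest unadjusted p of the 9 genes over the mean of the times. It had 1.93, 2.04, 0.793 and 1.40 CPM at 72 h after sham surgery and 2.93, 4.25, 2.28 and 3.84 after nephrectomy. All 4 nephrectomy libraries were above all 4 sham libraries, the only case without overlap among the 9 genes in any tissue or at any time. Of all genes in whole kidney at 72 h, 5.33% had all nephrectomy libraries above all sham libraries. The difference was 1.11 ± 0.51 (95% interval 0.06 to 2.16, unadjusted p = 0.0389, adjusted p = 0.905), and 0.00638% of all genes were called at this time.

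At 24 h Nr4a1 had 1.07, 8.71, 1.87 and 1.69 CPM after sham surgery and 4.48, 4.97, 9.40 and 4.17 after nephrectomy, and all 4 nephrectomy libraries were above 3 of the 4 sham libraries. At 48 h it had 2.26, 1.47, 4.22 and 2.87 against 2.04, 3.27, 1.88 and 5.25, which overlap widely. The mean difference over the times was 0.68 ± 0.29 (95% interval 0.07 to 1.28, unadjusted p = 0.0294, adjusted p = 0.226), where 2.86% of all genes were called.

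The sham library of 24 h that stood apart, number 2, was the highest of all whole kidney libraries for Fos, Fosb, Jun, Junb, Egr1, Atf3 and Myc. Fos had 1.23, 16.4, 1.76 and 0.792 CPM at 24 h after sham surgery against 1.40, 2.18, 3.33 and 0.644 after nephrectomy, Junb 19.1, 113, 11.7 and 8.37 against 15.9, 15.3, 29.4 and 11.6, and Atf3 1.12, 16.3, 0.718 and 0.895 against 2.65, 2.86, 6.36 and 1.40. Jun had 21.8, 94.7, 34.2 and 28.1 CPM against 51.3, 49.7, 72.6 and 41.1. With this library, the differences at 24 h were -1.53 ± 0.69 for Fos (unadjusted p = 0.0367), -1.11 ± 0.52 for Junb (unadjusted p = 0.0441) and -0.62 ± 0.69 for Atf3, and 0 of 9 genes were called, where 0.236% of all genes were.

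Without it, all 9 differences at 24 h were above 0, with a median of 0.784, and 3 were called by edgeR, where 1.08% of all genes were: Jun at 0.93 (adjusted p = 0.025), Nr4a1 at 1.83 (adjusted p = 0.0463) and Atf3 at 1.78 (adjusted p = 0.0483). Fos was then at 0.49 and Junb at 0.44. Over the mean of the times, Nr4a1 was at 1.04 (adjusted p = 0.0136) and was the 1 gene of 9 called, with 6.76% of all genes. In the opposite direction, without the 4 libraries of 24 h numbered 3 and 4, Fos at 24 h was at -2.32 (adjusted p = 0.0363) and Junb at -2.09 (adjusted p = 0.00788), with 16.4% of all genes called, and the mean difference of Nr4a1 was 0.41. The sham group of 24 h then held number 2, at 16.4 CPM for Fos and 113 for Junb, and 1 other library. These differences of Fos and Junb thus lean on sham number 2. Which early genes differed at 24 h in whole kidney, and in which direction, thus depended on the libraries kept. Over the 35 settings run, the adjusted p at 24 h ranged from 0.025 to 0.993 for Jun, 0.0463 to 0.99 for Nr4a1, 0.0483 to 0.99 for Atf3, 0.0363 to 0.994 for Fos and 0.00788 to 0.99 for Junb.

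Dusp1 was less affected by that library. It had 12.5, 20.9, 13.5 and 10.7 CPM at 24 h after sham surgery and 22.1, 21.8, 21.5 and 19.0 after nephrectomy, a difference of 0.55 ± 0.21 (unadjusted p = 0.0165, adjusted p = 0.275). Without sham 24 h number 2, Dusp1 differed by 0.78 in edgeR's test (adjusted p = 0.0625). At 48 h it had 33.1, 24.3, 21.0 and 17.8 against 19.5, 23.2, 18.5 and 11.7, a difference of -0.40 ± 0.21, and at 72 h 13.9, 15.6, 12.6 and 15.9 against 15.2, 13.6, 15.5 and 19.6. Its effect differed between times at an unadjusted p of 0.0146 (adjusted p = 0.713), the 1 gene of 9 under 0.05, with 0 called where 0.0191% of all genes were.

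Over the mean of the times, edgeR and DESeq2 called 0 of the 9 genes in whole kidney and limma-voom called Nr4a1 (0.78, adjusted p = 0.0219) along with 12% of all genes. At 48 h 0 of 9 were called (0% of 15678 genes), and 0 of 9 at 72 h, where limma-voom called Nr4a1 (1.16, adjusted p = 0.0308) and 3.8% of all genes. At an unadjusted p under 0.05, 3 of 9 passed at 24 h, 0 at 48 h, 1 at 72 h and 1 over the mean, against 12.9%, 10.3%, 5.2% and 17.5% of all genes. The median of the 9 mean differences was -0.02, with 4 above 0. Over the 34 settings run, the adjusted p of the mean difference of Nr4a1 ranged from 0.0136 to 0.949, and that of its 72 h difference from 0.0308 to 1.0. Of the related lists, 1 gene was called: Npm1, a nucleolar protein in the Myc and Max list of 12, was lower by edgeR's test, at -0.35 ± 0.10 (adjusted p = 0.0488). Of 10 proximal tubule markers, 2 were lower after nephrectomy, with a list median of -0.59.

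**Figure D5:**
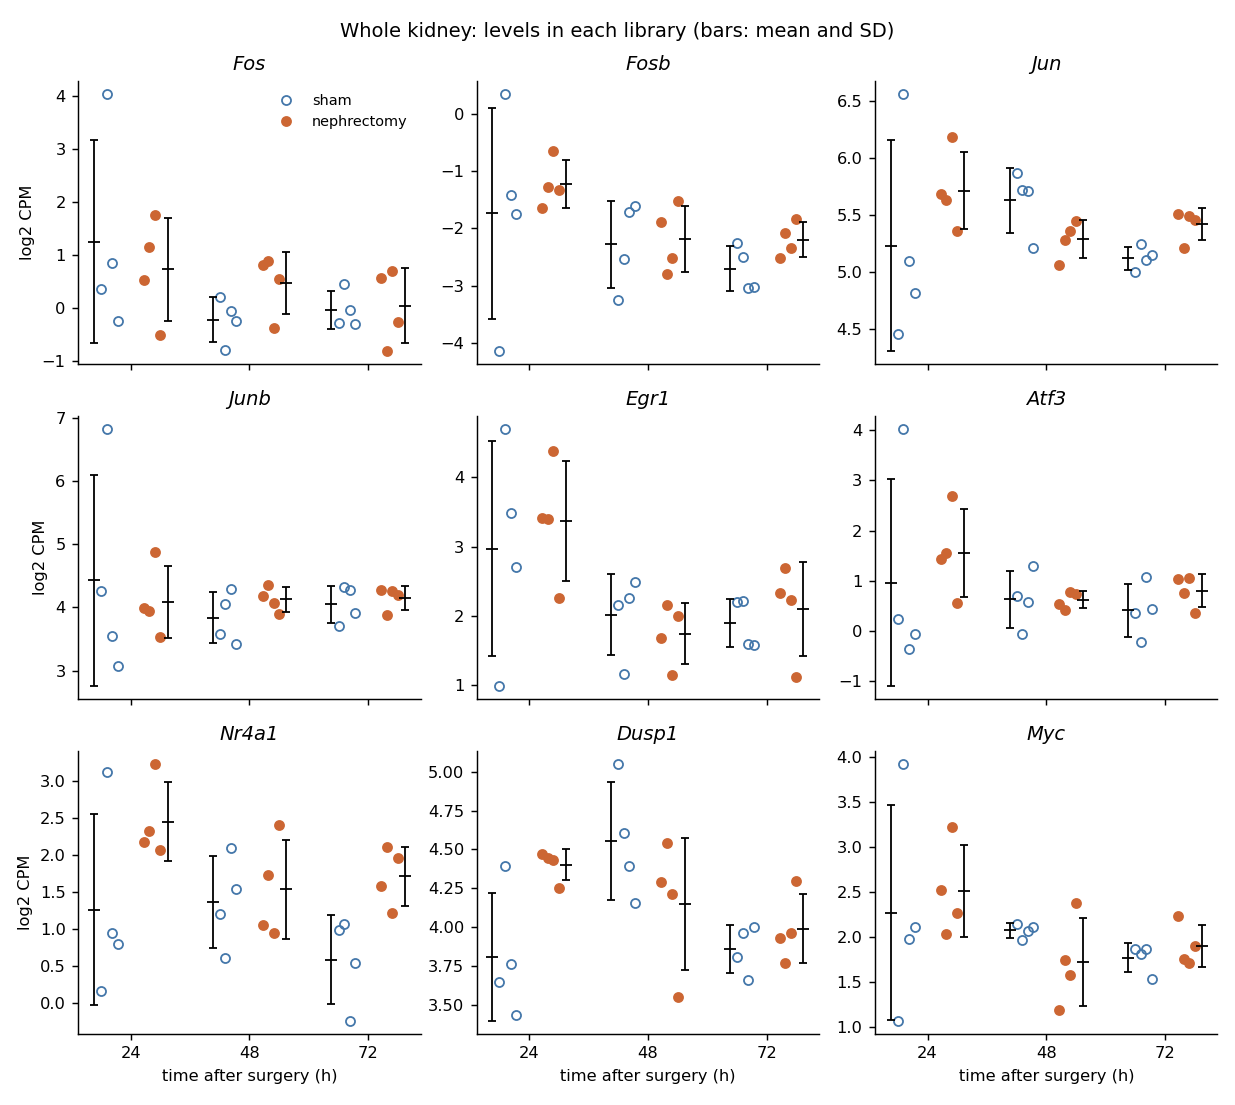
Level of each gene in whole kidney as log2 CPM against time in h, with a point for each library (open, sham; filled, nephrectomy) and bars for the mean ± SD. The sham library at the top of the 24 h group in most panels is number 2, at 16.4 CPM for Fos, and the 72 h groups of Nr4a1 do not overlap.

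The sham groups also addressed whether the genes differed between times after the same surgery. In glomeruli the edgeR test called 0 of 9 (0.0223% of all genes). There were 4 genes with an unadjusted p under 0.05, as had 11% of all genes: Fosb at 0.00626, Myc at 0.0158, Junb at 0.0186 and Egr1 at 0.0394. DESeq2 called 0 (2.03% of all genes) and limma-voom 5 (32% of all genes). In S1 0 of 9 were called (0% of all genes), with 0 under an unadjusted p of 0.05. In whole kidney 0 of 9 were called (0.0765% of all genes), with 6 under an unadjusted p of 0.05 (12.6% of all genes), of which Fos had the lowest (0.000585, adjusted p = 0.104). DESeq2 called 2 there (2.11% of all genes) and limma-voom 2 (11.3% of all genes). The whole kidney sham group of 24 h includes number 2, at 16.4 CPM for Fos. The highest sham values of Fos were 1.10 CPM at 48 h and 1.32 CPM at 72 h. Without number 2, edgeR called 2 of 9 genes between the sham times (1.66% of all genes), and the p of Fos without it is not given here.

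Because the 48 h glomerulus libraries of both surgeries were seen to lie low, the 48 h libraries were set against those of 24 and 72 h. This comparison was chosen after the values were seen, and its p-values do not allow for that choice. Fosb had a median of 28.1 CPM at 48 h (n = 8) and 384 at the other times (n = 15), Fos 42.9 and 192, Egr1 164 and 552, Atf3 13.2 and 63.7, and Junb 10.8 and 51.2. Nr4a1 had 116 and 220, Jun 206 and 317, Myc 8.35 and 13.1, and Dusp1 257 and 205. The 2 sets of libraries overlapped for every gene. For Myc, 12 of the 15 libraries of 24 and 72 h were above all 8 of 48 h.

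The edgeR difference of 48 h from the mean of the other times was -3.17 ± 0.65 for Fosb (adjusted p = 0.00324), -2.06 ± 0.53 for Atf3 (0.0105), -1.91 ± 0.52 for Fos (0.0134), -1.89 ± 0.41 for Junb (0.00427), -1.72 ± 0.42 for Egr1 (0.0082), -1.08 ± 0.38 for Nr4a1 (0.0433), -0.94 ± 0.27 for Myc (0.0168) and -0.63 ± 0.22 for Jun (0.0427). Dusp1 was at -0.04 ± 0.22 (adjusted p = 0.898). So 8 of 9 were called lower, where 11.2% of 22405 genes were called lower and 21.5% in either direction. The median of the 9 was -1.72, against -0.30 over all genes. Of all called genes 48.0% were higher at 48 h with the scaling used, 41.4% with relative log expression factors and 18.3% with library totals, and the 9 genes' directions did not change with these. The calls of Jun and Nr4a1 were the least firm: Jun lost its call on leaving out any of 17 of the 23 libraries in turn and Nr4a1 on leaving out any of 13, and both lost it with the left-out pair kept. Myc lost its call without sham 48 h number 2 or number 4, and without number 2 of them 5 of 9 were called (13.9% of all genes).

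Time was not separate from total reads here, uniquely placed or not. The 48 h glomerulus libraries had 48.7 to 63.2 M reads and the others 66.3 to 249.6 M, so time and total reads cannot be told apart. Counts over genes, on which CPM values rest, overlapped: 5.89 to 12.5 M at 48 h and 2.64 to 37.4 M at the other times. Of 25 further early response genes 12 were called lower and 0 higher at 48 h, among them Egr3 (-2.66), Jund (-2.60), Socs3 (-2.05) and Btg2 (-2.02), and 6 of 9 inflammatory early genes were lower, among them Cxcl1 (-2.75) and Ccl2 (-1.61). Of the 19 upstream kinases and factors 6 were higher, including Mapk8 (1.13). Of 7 endothelial markers 5 were higher, and of 6 markers of the loop of Henle and distal tubule 3 were higher (median 1.83), with mean log2 levels of 0.151 to 5.21 at 48 h and 0.696 to 4.94 at the other times. Podocyte markers lay between 9.47 and 10.1 at 48 h and between 9.14 and 10.4 at the other times, with 1 of 8 higher and 1 lower. The part of these cells in the early gene values was not tested.

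In the other tissues 48 h was less distinct. In S1 1 of 9 genes was called, Nr4a1 at -1.12 ± 0.34 (adjusted p = 0.0411), where 8.4% of all genes were called and 3.74% were called lower; 4 of 9 had an unadjusted p under 0.05 (27.4% of all genes), and without any 1 of 15 libraries in turn 0 were called. In whole kidney edgeR called 0 of 9 (0.466% of all genes), with Egr1 at -0.86 ± 0.33 (unadjusted p = 0.0148) and Dusp1 at 0.36 ± 0.13 (unadjusted p = 0.00875). Whether the 48 h difference was larger in glomeruli than in the other tissues was not tested.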

How the data were processed

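RNA-seq libraries of glomeruli, S1 tubules and whole kidney were used as deposited. Reads were trimmed with Trimmomatic 0.32, aligned with STAR 2.4.0.1 and counted per gene with HTSeq, with SAMtools, per the submitters' processing notes; the sources used here do not name the genome build, the annotation or the strand setting. The deposited count tables hold the authors' raw counts per gene, and rows that name no gene stayed out of library sizes. RPKM (dissected segments) and FPKM (whole kidney) values are the authors' deposited values per length and depth.

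Tests used edgeR 4.0.16 (quasi-likelihood, TMM scaling, filterByExpr with a minimum count of 10, R 4.3.3) on all libraries of a tissue together, with Benjamini-Hochberg adjustment over all genes tested, a call being an adjusted p under 0.05. The SE of a log2 fold change was taken from its F statistic, and tests were two-sided. CPM values use TMM library sizes, and log2 CPM a prior count of 2. Alternatives were DESeq2 1.42.0, RLE factors, no filter, limma 3.58.1 (voom with quality weights, and log2 of RPKM or FPKM with pseudocounts 1 and 0.1), library totals, a replicate block, each library left out, and the left-out pair kept. In all, 23 comparisons were made. Correlations used 100000 permutations. The analysis code was tested on simulated data. Replicate numbers were not treated as pairs in the main tests. Deviations of nephrectomy and sham of the same time and number correlated above 0.1 in 7 of 11 glomerulus, 10 of 11 S1 and 5 of 12 whole kidney pairs. Those of glomeruli and S1 of the same group and number did in 20 of 23 (median 0.383). The main test between segments took such libraries as independent, and an alternative used these pairs as a block. No test of nephrectomy against sham paired libraries by time and number.

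The genes, the related lists and the tests were chosen with earlier results of these data known. Genes outside the set were named from those lists where they were called or had an unadjusted p under 0.05, by size, and those most like Fos by correlation (5 per tissue).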

Additional observations from a re-analysis of the deposited data

Results flagged for a closer look

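Within groups of 4 libraries, 6 values of 144 groups stood far from the other 3 by Dixon's test at the 95% level, a rate that chance alone would give in about 5% of groups. In glomeruli after nephrectomy, number 3 of 72 h was low for Nr4a1 (47.1 CPM, others 470 to 625) and for Dusp1 (138 CPM, others 374 to 450), and number 4 of 24 h was high for Dusp1 (484 CPM, others 174 to 205). In S1, number 2 of sham 72 h was low for Myc (3.24 CPM, others 5.005 to 5.33). In whole kidney, number 2 of sham 24 h was high for Atf3 (16.3 CPM, others 0.718 to 1.12), and number 4 of nephrectomy 24 h was low for Dusp1 (19.0 CPM, others 21.5 to 22.1).

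By podocyte and proximal tubule markers, the pair labelled sham 24 h, number 2, went against its labels, as described above. The library labelled S1, sham 24 h, number 2, which entered no test, was above all 23 other S1 libraries for all 9 genes, in CPM of library totals. Fos was at 242 CPM (others 0.0420 to 10.7), Fosb at 616, Jun at 312, Junb at 46.2, Egr1 at 768, Atf3 at 74.5, Nr4a1 at 218, Dusp1 at 191 and Myc at 12.5 (others 1.37 to 9.56). All 9 values lay within the range of the 23 tested glomerulus libraries, which was 16.8 to 479 CPM for Fos. The library labelled glomeruli of the same group and number was below all 23 other glomerulus libraries for 8 of the genes, with Fos at 1.37 CPM and Egr1 at 5.41 CPM, and within their range for Myc (6.89 CPM).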

How the results depend on the processing

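The counts of early genes called held under most settings. In glomeruli, leaving out 1 library in turn gave 0 of 9 called after nephrectomy at each time and over their mean, and 8 of 9 called against S1; the 48 h comparison, chosen after seeing the data, kept 5 to 8. In S1 leave-one-out gave 0 after nephrectomy at each time and over their mean. For 48 h against the other times in S1 it gave 0 to 2, and the count moved in 16 of 23 cases. In whole kidney it gave 0 to 3 for nephrectomy at 24 h, 0 to 1 for the mean and 0 to 3 for the sham times. With voom, 5 genes were called for the sham times in glomeruli (32% of all genes), 1 in S1 after nephrectomy at 48 h (1.01%), 1 in whole kidney at 72 h (3.8%), 1 over its mean (12%), 2 for its sham times (11.3%) and 2 at 48 h against other times (12.9%). DESeq2 called 2 for the whole kidney sham times (2.11%) and 3 in S1 at 48 h against other times (19.3%), where voom called 2 (33.2%) and no filter, RPKM values with either pseudocount and library totals called 0. Without whole kidney 24 h numbers 3 and 4, 2 were called at 24 h (16.4%), 1 for the difference between times (11.4%) and 4 for the sham times (10.4%). That setting kept sham 24 h number 2, with 1 other library in its group.

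Atf3 in whole kidney at 24 h ranged from -1.06 to 1.78 over the libraries left out, turning from -0.62 to 1.78 without sham 24 h number 2. Myc in glomeruli against S1 turned from -0.49 to 0.93 and 1.20 with RPKM and pseudocounts of 1 and 0.1, and to 1.25 with library totals. The cause was not tested. The replicate block held a term for each number, shared by all times and both surgeries, so it did not pair libraries of the same time and number. It changed no count of these genes: in glomeruli at 48 h 8 were called with and without it, and 5416 against 4815 of all genes. With glomerulus and S1 libraries of the same number as a block, 8 were still called between segments, and 9065 against 9721 of all genes. Over all genes, the count at 48 h in glomeruli was 7591 with DESeq2, 9180 with voom and 2146 with the left-out pair kept. Against S1 it was 9721, and 21296 with library totals, 20714 and 21223 with RPKM and 15713 with voom. Over all genes in whole kidney 37 were called at 24 h, and 2645 without numbers 3 and 4.

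Of the differences of single genes, 3406 kept their direction and their side of the threshold when 1 library was left out, 106 moved with no call, 47 lost and 4 gained a call and 1 reversed; under other settings 1365 kept both, 98 moved, 7 lost and 10 gained a call and 3 reversed.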
